A study of Mus musculus with 17 samples.

Results

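Potassium channel genes were examined for H3K27ac in mouse hypothalamus, the ventral forebrain region whose neurons govern feeding, sleep, reproduction and hormone release. The members were the 94 protein-coding genes whose symbol starts with Kcn, of 21883 protein-coding genes annotated on chromosomes 1 to 19, X and Y. They were chosen by name and not by any measured value, though with earlier results of these data known. They fell into 19 subfamilies by the fourth letter of the symbol. H3K27ac is the acetylation of histone H3 at lysine 27, which marks active promoters and enhancers. It was mapped by bulk CUT&Tag, in which an antibody directs a transposase to marked chromatin, in 3 samples titled as biological replicates of hypothalamus with no genotype, treatment, sex or age in the labels. Another 7 DNA and 7 RNA sub-libraries of single-nucleus Paired-Tag from hypothalamus, made with antibodies against H3K27ac and H3K27me3, were not analysed here. The authors deposited a single peak list for the 3 bulk samples, so no value per sample, no read depth and no spread between animals can be given, and every value below describes that list. Binomial intervals cover counting error only. In dissected tissue, a change in how many cells carry a mark and a change in the mark per cell cannot be told apart.

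Potassium channels let potassium leave the cell and thereby set the resting potential, end action potentials and limit firing. Pore-forming subunits come as voltage-gated channels (Kcna, Kcnb, Kcnc, Kcnd, Kcnh, Kcnq and the silent subunits Kcnf, Kcng, Kcns and Kcnv, which modify other voltage-gated subunits), inward rectifiers (Kcnj), tandem pore leak channels (Kcnk) and channels opened by calcium or sodium (Kcnma, Kcnn, Kcnt), to which the sperm channel Kcnu1 is related. Auxiliary subunits (Kcnab, Kcne, Kcnip, Kcnmb) change their gating or traffic, and Kcnrg encodes a regulator that is no channel. In the hypothalamus these channels are known for coupling glucose, hormones and time of day to neuronal firing. These 5 classes held 40, 15, 14, 8 and 17 genes.

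Promoter sequences are shown for 5 members that span the range of the mark at the start, from RefSeq on GRCm38.p6, the assembly called mm10. Each runs 5′ to 3′ from 250 bases before the annotated start to 50 bases after it, in lower case with CpG dinucleotides in capitals. Kcnj2, an inward rectifier, had the highest fold at a start in the family. Kcnt2, a sodium-activated channel, had a strong start peak in an otherwise sparse gene. Kcnc1, a channel of fast-spiking neurons, had a weak start peak in a densely covered gene. Kcnk18 and Kcnj13, known from sensory ganglia and from choroid plexus epithelium, had no peak at the start. They lie at chr11:111065914-111066213 on the plus strand for Kcnj2, chr1:140245468-140245767 on the plus strand for Kcnt2, chr7:46396218-46396517 on the plus strand for Kcnc1, chr19:59219398-59219697 on the plus strand for Kcnk18 and chr1:87394680-87394979 on the minus strand for Kcnj13.
Kcnj2: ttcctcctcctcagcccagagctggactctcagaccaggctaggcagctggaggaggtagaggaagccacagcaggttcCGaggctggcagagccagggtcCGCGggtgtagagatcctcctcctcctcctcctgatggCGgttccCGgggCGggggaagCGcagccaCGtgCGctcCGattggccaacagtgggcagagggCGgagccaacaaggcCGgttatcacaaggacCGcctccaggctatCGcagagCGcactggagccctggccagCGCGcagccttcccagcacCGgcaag
Kcnt2: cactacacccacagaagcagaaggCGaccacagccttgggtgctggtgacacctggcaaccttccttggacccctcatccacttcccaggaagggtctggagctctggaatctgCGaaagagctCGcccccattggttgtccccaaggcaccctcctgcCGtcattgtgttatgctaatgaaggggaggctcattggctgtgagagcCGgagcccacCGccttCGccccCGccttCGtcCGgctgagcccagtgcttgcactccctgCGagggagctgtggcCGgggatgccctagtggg
Kcnc1: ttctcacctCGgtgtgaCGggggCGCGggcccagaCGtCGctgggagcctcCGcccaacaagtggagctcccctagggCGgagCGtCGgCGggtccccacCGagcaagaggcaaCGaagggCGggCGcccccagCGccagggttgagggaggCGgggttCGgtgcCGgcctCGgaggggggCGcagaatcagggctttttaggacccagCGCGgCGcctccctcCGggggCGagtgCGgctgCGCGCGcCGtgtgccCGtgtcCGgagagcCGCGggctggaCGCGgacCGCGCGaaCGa
Kcnk18: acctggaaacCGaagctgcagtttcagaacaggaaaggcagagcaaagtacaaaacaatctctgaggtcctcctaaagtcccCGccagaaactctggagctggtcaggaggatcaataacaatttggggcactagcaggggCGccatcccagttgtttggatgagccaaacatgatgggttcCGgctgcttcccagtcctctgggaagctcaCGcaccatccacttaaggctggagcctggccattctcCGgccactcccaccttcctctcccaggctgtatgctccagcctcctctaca
Kcnj13: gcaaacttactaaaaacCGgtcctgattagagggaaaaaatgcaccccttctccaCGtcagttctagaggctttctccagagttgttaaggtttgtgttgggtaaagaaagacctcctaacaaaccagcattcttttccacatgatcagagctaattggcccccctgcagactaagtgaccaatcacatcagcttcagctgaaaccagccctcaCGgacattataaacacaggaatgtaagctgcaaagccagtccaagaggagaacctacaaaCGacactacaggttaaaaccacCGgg
CpG dinucleotides numbered 18 in the Kcnj2 window, 12 in Kcnt2, 41 in Kcnc1, 6 in Kcnk18 and 5 in Kcnj13, so the window with the most CpG of these 5 was not the one with the highest fold.

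Every Kcn gene had an H3K27ac peak in its span or within 10 kb of it, 94 of 94 (exact Clopper-Pearson 95% interval 96.2 to 100%), against 79.2% of all protein-coding genes. The peaks were 1397 in number, 0.761% of the 183678 in the list, with a median fold enrichment of 3.07 against 3.18 over all peaks and a median width of 597 bp against 557 bp. Fold enrichment is the value the authors' peak caller gave to each peak. The number of peaks per gene ran from 1 to 126, with a median of 8 against 4 over all protein-coding genes, and Kcn genes were also longer, with a median of 32692 bp against 17170 bp. Per 10 kb of window the medians were 1.58 peaks in Kcn genes and 0.947 in all genes. Kcnma1, the pore of the large-conductance calcium-activated channel that shapes the daily firing rhythm of the suprachiasmatic nucleus, had the most, 126 peaks over its 712823 bp. Without the flanks 7 members had no peak: Kcna7, Kcnd1, Kcne2, Kcnj1, Kcnk16, Kcnk18 and Kcnrg, so the share with a peak was 92.6% against 74.3% of all genes. In 7 members, Kcna7, Kcnd1, Kcnj13, Kcnj14, Kcnk15, Kcnmb1 and Kcnrg, every peak in the window also lay in or within 1 kb of another protein-coding gene. With such peaks left out, 92.6% of members and 69.4% of all genes had a peak, against 100% and 79.2% with them.

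Peaks covered a median of 12.5% of the bases of the span and flanks of Kcn genes (interquartile range 4.38 to 17.1%), against 7.50% in all protein-coding genes (1.73 to 13.9%). To match on length, each gene was ranked by this covered percent among the 100 next shorter and 100 next longer protein-coding genes outside the family, and the rank is given as a percentile. The median percentile of the 94 members was 69 (order-statistic 95% interval 57 to 77.5) against 47.8 over all genes. Of the members 62 of 94 lay above the 50th percentile, against 47.1% of all genes, 17 lay at or above the 90th (18.1% against 10.3%) and 2, Kcnt2 and Kcnj15, at or under the 10th (2.13% against 8.53%). With 1 list no test over samples is possible, and members share neighbours and peaks, so these are descriptions of the list.

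The position relative to genes of similar length differed between shorter and longer members. In members of up to 10 kb the median percentile was 68 (n = 21), in those of over 10 to 30 kb it was 77.5 (n = 23), in those of over 30 to 100 kb it was 79.5 (n = 27), and in those of over 100 kb it was 42.5 (n = 23). In the last band peaks covered a median of 4.5% of Kcn windows, against 7.55% of the windows of all 2428 genes of that size. Among these long members 10 of 23 (43.5%) lay above the 50th percentile, against 49.55% of all genes of over 100 kb. Kcnn3 reached 97, Kcnma1 86.5, the A-type channel gene Kcnd3 86 and Kcnh1 80.5, while Kcnt2 lay at 5.0, Kcnh8 at 15, Kcnc2 at 16, and Kcnh7 and Kcnj3 at 18 each. The others lay between these, among them Kcnd2 at 42, Kcnq1 at 48, Kcnk2 at 56 and Kcnab1 at 61, so the long members ran from low to high values without separate groups.

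**Figure D1:**
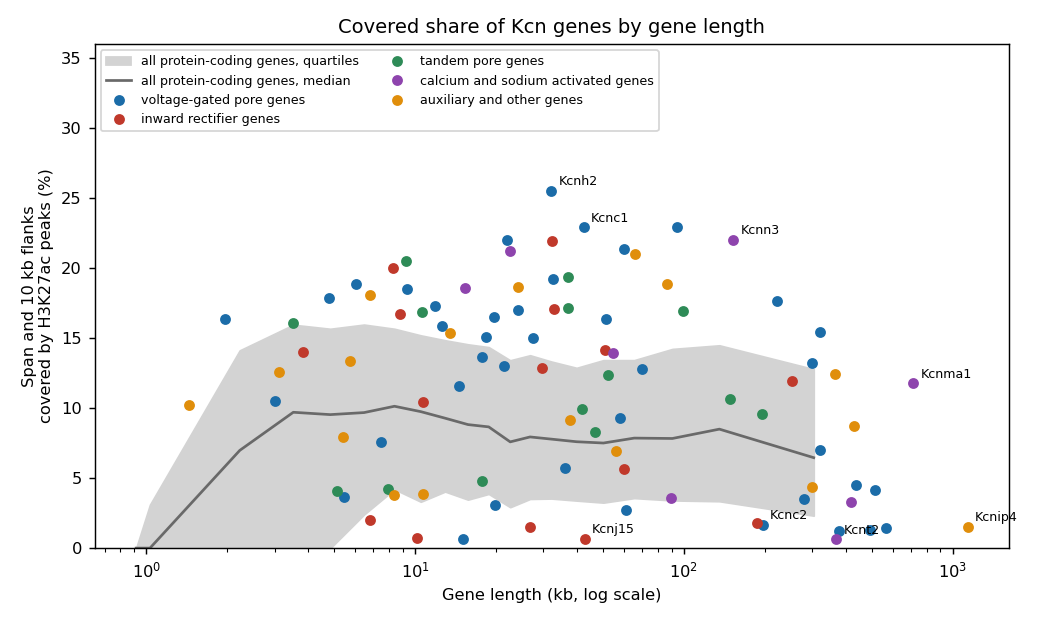
Percent of the span and 10 kb flanks covered by H3K27ac peaks (y) against gene length in kb (x, log scale), 1 point per Kcn gene coloured by class, with the median (line) and quartiles (band) of all protein-coding genes in 20 bins of length. Kcnh2 (25.5%), Kcnc1 (22.9%) and Kcnn3 (22.03%) lie above the band, and Kcnt2 (0.645%) and Kcnj15 (0.662%) near 0.

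Among voltage-gated pore genes the median percentile was 74.8 (n = 40, range 12 to 99), and 7 of the 40 lay at or above the 90th. Kcnh2, an ether-a-go-go related channel, and Kcnc1 each reached 99, the highest values of the family. Kcnh2 lies on chromosome 5 (24319589 to 24351684), and its 10 peaks covered 25.5% of the window. Kcnc1 lies on chromosome 7 (46396219 to 46438706), and its 20 peaks covered 22.9% of the window with a highest fold of 3.53, so its coverage came from many weak peaks. When only peaks of high fold were counted (4.24 or more, the upper quartile of the list), Kcnc1 stood at 6.0 among genes of similar length, while Kcnh2 stood at 100.0. Kcnc4 reached 96 with 10 peaks.

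Related voltage-gated genes were far apart. In the Kcnc subfamily of fast-spiking channels Kcnc1 and Kcnc4 stood at 99 and 96 and Kcnc2 at 16, with 4 peaks in 196407 bp. Kcnb2, a delayed rectifier, stood at 42.5, and the strongest of its 31 peaks had a fold of 12.9. Of the genes of the muscarine-sensitive M-current, Kcnq3 stood at 72.5 with 57 peaks and Kcnq5 at 23.5 with 15. The Kcnh genes, of the ether-a-go-go group, ran from Kcnh2 at 99 to Kcnh8 at 15, with Kcnh7 at 18 and Kcnh5 at 27. The A-type genes Kcnd3, Kcnd1 and Kcnd2, whose channels open below spike threshold, stood at 86, 61.5 and 42. All 3 peaks in the Kcnd1 window lay in or near other genes, with the strongest, at a fold of 8.06, shared with Otud5, and without shared peaks Kcnd1 fell to 12.3.

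The shaker-type Kcna genes set the firing threshold of axons. Kcna6 stood at 95.5 with 13 peaks, Kcna2 at 93 with 8, Kcna1 at 85 with 6 and Kcna3, a channel also known from lymphocytes and microglia, at 79.5 with 3. Kcna10 stood at 78.5 with 7 peaks, Kcna5 at 54 with 3 and Kcna4 at 37 with 6. Kcna7, a muscle channel, stood at 31. Its 2 peaks both lay in or near other genes, including 1 with a fold of 13.9 shared with Snrnp70. Among the silent subunits Kcns2 stood at 88, Kcng4 at 86.5 and Kcnf1 at 85.5, and the lowest values were those of Kcnv1 at 22 and of Kcnv2, known from photoreceptors, at 12. Kcnv1 had 1 peak in its window, with a fold of 13.2, on chromosome 15 (45114043 to 45115281). That peak covered 3.11% of the window, so a high fold and a low coverage met in this gene.

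**Figure D2:**
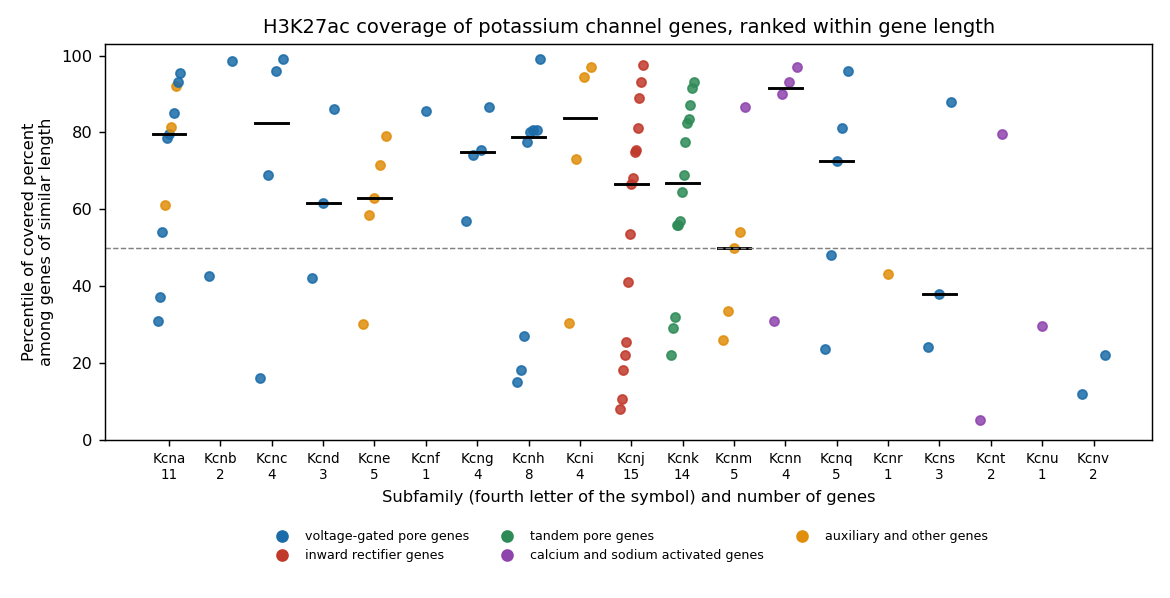
Percentile of covered percent among genes of similar length (y, 0 to 100) for each of the 94 Kcn genes by subfamily (x, with the number of genes), coloured by class, with a bar at the median where a subfamily has 3 or more genes and a dashed line at 50. Kcnn, Kcni and Kcnc have medians of 91.5, 83.8 and 82.5. Single genes of Kcnc, Kcnn and Kcnq and several genes of Kcnh and Kcnj lie far below the median of their subfamily.

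The inward rectifiers had a median percentile of 66.5 (n = 15, range 8.0 to 97.5). The subunits of the channels opened by G proteins, through which opioids, serotonin and GABA silence hypothalamic neurons, were unequal: Kcnj9 stood at 81, Kcnj5 at 75.5, Kcnj6 at 66.5 with 44 peaks, and Kcnj3 at 18 with 4 peaks in 186348 bp. Kcnj4, a strong rectifier, reached 97.5. Kcnj14 reached 93, but its 5 peaks all lay in or near other genes and without them it stood at 20.8. Kcnj10, which clears potassium into astrocytes and oligodendrocytes, stood at 89 with 14 peaks, and its strongest, with a fold of 11.1, was shared with Pigm. Kcnj11, the pore of the glucose-sensing ATP-sensitive channel of hypothalamic neurons, stood at 68 with 5 peaks, and at 97 when its 3830 bp span was taken alone. The lowest were Kcnj15 at 8.0 and the kidney channel Kcnj1 at 10.5. The choroid plexus channel Kcnj13 at 22 had 1 peak of 210 bp, which lay in Gigyf2. Without flanks the median of this class was 41, with flanks of 50 kb it was 50.5, and counting only peaks of high fold (4.24 or more) it was 40.0.

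Tandem pore genes, which carry the leak current that sets the resting potential, had a median percentile of 66.8 (n = 14, range 22 to 93). The acid-sensitive channel genes Kcnk3 and Kcnk9, known from orexin neurons, stood at 93 and 56. The mechanically gated Kcnk4, Kcnk10 and Kcnk2 stood at 91.5, 57 and 56, and 3 of the 4 Kcnk4 peaks lay in or near other genes, without which it stood at 56.5. Kcnk1 stood at 87, Kcnk6 at 83.5 and the microglial channel gene Kcnk13 at 82.5 with 34 peaks in and around 99534 bp. The lowest were Kcnk16, known from pancreatic islets, at 22, Kcnk18 at 29 and Kcnk15 at 32, whose single peak was shared with Rims4.

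Channels opened by calcium or sodium had a median percentile of 83 (n = 8, range 5.0 to 97), which was 49 when only peaks of high fold (4.24 or more) were counted. The small-conductance genes Kcnn3 and Kcnn1, whose channels produce the pause after a spike, stood at 97 and 93, while Kcnn2 stood at 31. Kcnn3 lies on chromosome 3 (89520164 to 89672494), and its 47 peaks covered 22.03% of the window. Kcnn4, a channel of blood and immune cells, stood at the 90th percentile with 11 peaks, and at 46.5 when only peaks of high fold were counted. The sodium-activated pair was split, with Kcnt1 at 79.5 with 13 peaks and Kcnt2 at 5.0 with 4 peaks in 368389 bp, and Kcnu1 stood at 29.5.

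Auxiliary and other genes had a median percentile of 61 (n = 17, range 26 to 97). The Kcnip genes encode calcium sensors that bind A-type channels: Kcnip2 stood at 97, Kcnip3 at 94.5 with 24 peaks (26.5 when only peaks of high fold were counted), Kcnip1 at 73 with 66 and Kcnip4, of 1135620 bp, at 30.4 with 26. The Kcnab genes, whose products bind Kcna channels, stood at 92 for Kcnab2, 81.5 for Kcnab3 and 61 for Kcnab1. The partners of the large-conductance channel stood lower, with Kcnmb3 at 54, Kcnmb4 at 50.0, Kcnmb2 at 33.5 and Kcnmb1, known from smooth muscle, at 26. When only peaks of high fold were counted, these stood at 84, 76.5, 28 and 11.25. Both Kcnmb1 peaks also lay in the span of Kcnip1. The single-pass Kcne subunits ran from Kcne1 at 79 to Kcne3 at 30.0, and the strongest of the 4 peaks around Kcne2, with a fold of 9.80, was shared with Smim11.

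Between the subfamilies with 3 or more genes, the median percentile ran from 91.5 for Kcnn (n = 4), 83.8 for Kcni, which are the Kcnip genes (n = 4), 82.5 for Kcnc (n = 4), 79.5 for Kcna with Kcnab (n = 11) and 78.8 for Kcnh (n = 8) down to 50.0 for Kcnm (n = 5) and 38 for Kcns (n = 3). The values within a subfamily ran from 16 to 99 in Kcnc, from 15 to 99 in Kcnh and from 8.0 to 97.5 in Kcnj, wider than the distance between the highest and lowest of these medians. No test between subfamilies was run. Counting only peaks of high fold also lowered other members named here by more than 1.5 times, among them Kcng4 to 31, Kcnh1 to 37, Kcnj9 to 40.0, Kcnj11 to 38.5, Kcnk13 to 53.5 and Kcnt1 to 48. It raised others, among them Kcnd1 from 61.5 to 89.5, Kcnj6 from 66.5 to 95.5 and Kcnn2 from 31 to 50.0. By class the order was calcium and sodium activated, voltage-gated, tandem pore, inward rectifier and auxiliary genes, and their order-statistic 95% intervals overlapped (5.0 to 97, 48 to 80.5, 32 to 87, 22 to 81 and 43 to 79).

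At annotated starts, Kcn genes were marked in 56 of 69 cases (81.2%, exact 95% interval 69.9 to 89.6%), against 68.3% of all 17491 protein-coding genes with an annotated start in the RefSeq promoter table. The other 25 members have no entry there. At either end of the span the shares were 84.0% (79 of 94) and 69.2%. By class 23 of 25 voltage-gated, 9 of 13 inward rectifier, 8 of 11 tandem pore, 5 of 5 calcium and sodium activated and 11 of 15 auxiliary genes had a peak within 1 kb of a start. The 13 members without one were Kcna7, Kcne2, Kcnh6, Kcnj1, Kcnj12, Kcnj13, Kcnj15, Kcnk15, Kcnk16, Kcnk18, Kcnmb1, Kcnmb3 and Kcnrg. Several of these are channels of kidney, pancreas, muscle or epithelia. But of 8 genes with an annotated start in the list of genes known mainly from other organs, described further below, 3 had a start peak. These were Kcnk5, Kcna10 and Kcne3, and a link to organ was not tested.

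The fold at these starts was lower than at starts at large. The median of the highest fold was 6.02 in the 56 Kcn genes (interquartile range 4.53 to 7.01), against 9.05 in all 11947 marked genes (5.98 to 12.2), and 51 of the 56 lay below that median of all genes. The 5 above it were Kcnj2 at 13.6, Kcnk5 at 12.4, Kcnj6 at 10.2, Kcnip4 at 9.90 and Kcnt2 at 9.82. Kcnj2, which holds the resting potential of muscle, endothelium and some neurons, carried its peak on chromosome 11 (111064819 to 111066673), and no other gene shared it. Kcnk5, a leak channel known from kidney, carried its peak on chromosome 14 (20180388 to 20182035). Next came Kcna3 at 8.51, Kcnh7 at 8.49, Kcna4 at 8.42, Kcnab1 at 8.18 and Kcnk4 at 7.91. The lowest were Kcnn4 at 1.71, Kcne4 at 2.43, Kcna10 at 2.69, Kcns1 at 2.81 and Kcnj4 at 3.04. The only annotated start of Kcnj4 lies inside its span, and a peak at the upstream end of that span had a fold of 7.91.

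**Figure D3:**
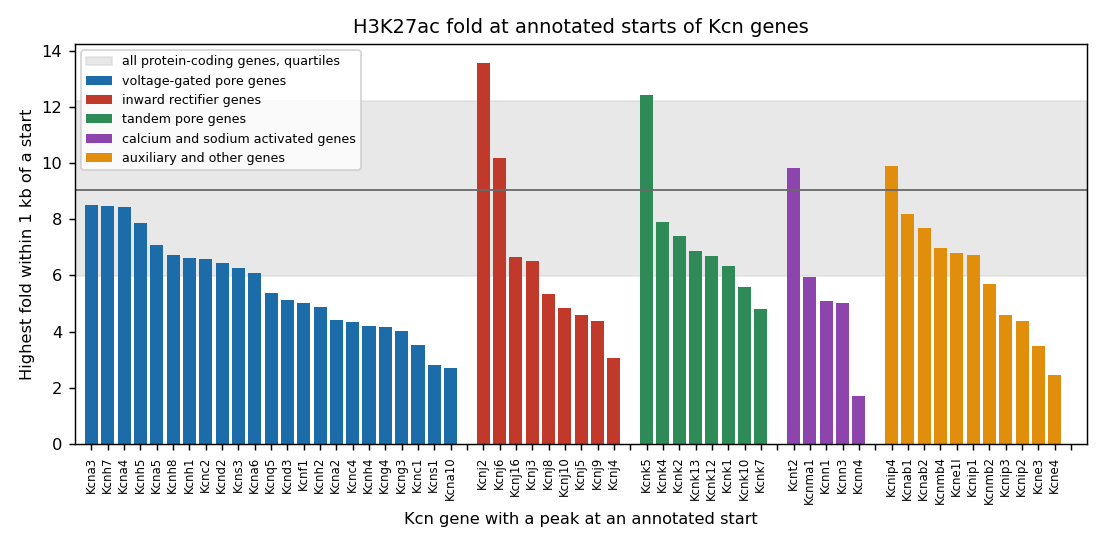
Highest fold of a peak within 1 kb of an annotated start (y, from 0) for the 56 Kcn genes with such a peak, ordered within class, 1 bar per gene. The grey band and line are the quartiles and median (5.98, 9.05 and 12.2) of all protein-coding genes with a start peak, and 5 bars pass the line.

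Start peaks of Kcn genes were also wider, with a median of 1675 bp (interquartile range 1228 to 2157) against 1271 bp (983 to 1602) in all marked genes. Over genes of at least 30 kb, peaks covered on average 62.2% of the bases within 1 kb of the first start in 38 Kcn genes and 51.8% in 5880 genes outside the family. From 1 to 3 kb downstream of the start the averages were 24.2% and 9.31%, and from 3 to 10 kb they were 6.58% and 5.53%. From 10 to 30 kb downstream they were 9.83% and 7.99%, and from 10 to 1 kb upstream 5.38% and 3.97%. The gap in ratio was thus largest of these 5 zones in the first kilobases downstream of the start.

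**Figure D4:**
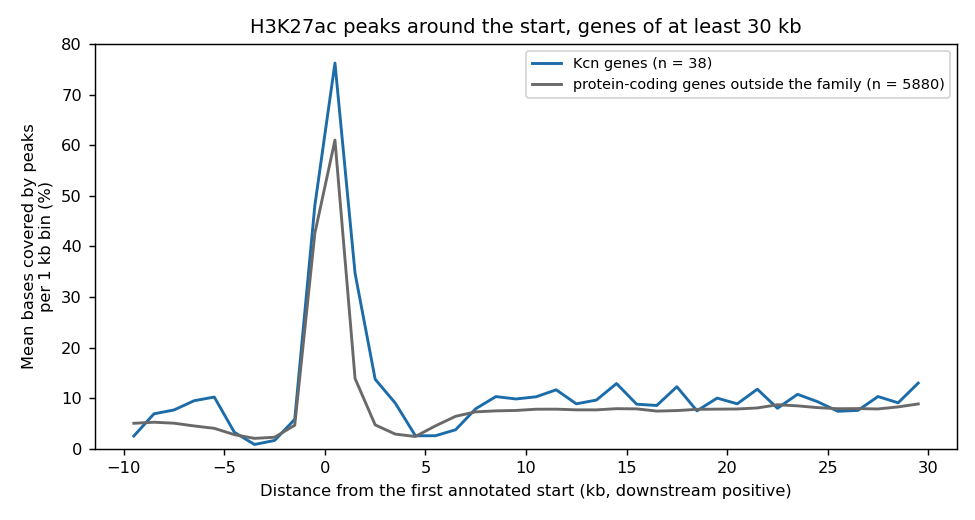
Mean percent of bases covered by peaks in 1 kb bins (y) against the distance from the first annotated start in kb (x, downstream positive), for 38 Kcn genes and 5880 other protein-coding genes of at least 30 kb. The bin from 1 to 2 kb downstream holds 34.7% in Kcn genes and 13.9% in the others.

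Start fold and coverage ran in opposite directions across genes. Across the 56 members with a start peak, Spearman's rho between start fold and covered percent was -0.44 (Pearson's r -0.38), and across all 11947 marked genes it was -0.37 (-0.38). These are correlations across genes of 1 list, which share its depth and threshold. A start fold above the family median with coverage under the 25th percentile was seen in 6 members, Kcnc2, Kcnh7, Kcnh8, Kcnj3, Kcns3 and Kcnt2. The reverse, a start fold under that median with coverage at or above the 90th percentile, was seen in 10, Kcna2, Kcnc1, Kcnc4, Kcnh2, Kcnip2, Kcnip3, Kcnj4, Kcnn1, Kcnn3 and Kcnn4. A high start fold with coverage at or above the 90th percentile was seen in 3, Kcna6, Kcnab2 and Kcnk4, and a low one with coverage under the 25th in 1, Kcnq5. Kcnj4 and Kcnn1 count as low by annotated starts that lie inside their spans. Peaks at the upstream end of their spans had folds of 7.91 and 8.23, above the family median of 6.02. As shares of the 56 members these 4 combinations made up 10.7%, 17.9%, 5.36% and 1.79%, against 6.56%, 11.3%, 2.6% and 3.65% of all marked genes split at their own median fold.

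**Figure D5:**
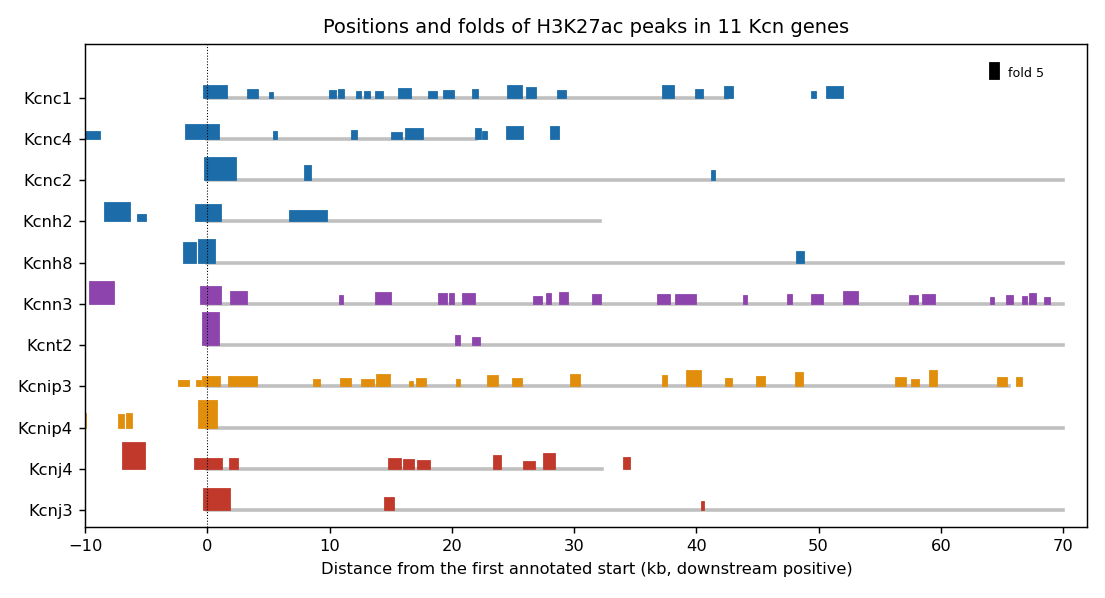
Positions of H3K27ac peaks relative to the first annotated start (x, kb, downstream positive, from 10 kb upstream to about 70 kb downstream) in 11 Kcn genes. The height of each box is proportional to fold. The grey line runs from that start for the length of the gene, up to 70 kb. In Kcnh2, Kcnip4, Kcnj3 and Kcnj4 the start lies kilobases inside the span, so there the line is not the gene body. Kcnc1, Kcnn3 and Kcnip3 carry boxes along the gene, and Kcnc2, Kcnh8, Kcnt2 and Kcnj3 carry few, the tallest at the start.

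Of the 69 members with an annotated start, the strongest peak of the window lay at a start in 29 (42.03%), elsewhere inside the gene in 19 (27.5%) and in the flanks in 21 (30.4%). Over the 13807 protein-coding genes with an annotated start and a peak, these shares were 59.2%, 13.3% and 27.6%. The 19 include Kcnj4 and Kcnn1, whose strongest peak lay at the upstream end of the span, away from the starts in the promoter table. In 19 of the 94 members (20.2%) the strongest peak was in or within 1 kb of another gene, against 35.8% of all genes with a peak, and the target of such a peak is uncertain. Strong peaks inside the gene and away from a start included one of fold 10.2 in Kcnd2, one of 9.30 in Kcnab1 and one of 9.0 in Kcnk2. Several annotated starts were recorded for 15 members, and of all 94 starts 76 had a peak. The 3 starts of Kcnip1 had folds of 6.72, 5.62 and 3.97, and those of Kcnab1 had 8.18, 3.97 and 3.76. In Kcnj16, a partner of Kcnj10 in glia, 3 of 4 starts were marked, with folds of 6.65, 6.36 and 3.11, and the first was not. In Kcnj6 the start at 94997696 on chromosome 16 had a fold of 10.2 and the one at 94856690 had none.

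Windows with a peak at that same start held more CpG dinucleotides, by median, than windows without one, in the family and in all genes. In the 300 bp window at the first annotated start, the median number of CpG was 12 in the 53 members with a peak within 1 kb of that start and 4 in the 16 without, against 20 and 2 over all protein-coding genes (n = 11774 and 5717). The GC box GGGCGG, searched on both strands, was in 33 of 53 Kcn windows with a peak (62.3%) and 3 of 16 without (18.8%), against 63.95% and 10.01% over all genes. The TATA box TATAAA, on both strands, was in 3 of the 69 Kcn windows (4.35%), those of Kcnj9, Kcnj13 and Kcnj15, against 13.3% of all. The CCAAT letters were in 30.4% of Kcn windows and 39.2% of all, and the E-box CACGTG in 7.25% and 7.91%. Exceptions ran both ways: Kcna10 had no CpG in the window and a start fold of 2.69, and Kcnk15 and Kcnh6 had 24 CpG each and no start peak.

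Members were also grouped by where they are best known, in lists chosen with earlier results of these data known. The 22 genes with roles in hypothalamic neurons had a median percentile of 70.3 (order-statistic 95% interval 42 to 93), and 20 of them had a peak at an end of the span. The 11 genes of glia, vessels, immune cells and choroid plexus had a median of 71.5 (25.5 to 89), with 8 marked at an end, and the 12 genes known mainly from other organs had 29.8 (12 to 64.5), with 6 marked at an end. These intervals overlap, and no difference between the lists was tested. In the last list none lay at or above the 90th percentile, against 10.3% of all protein-coding genes. At or under the 10th lay 1 of the 12 (8.33%), near the 8.53% of all genes. Above the 50th lay 3, against 47.1% of all genes. The share of all genes with a peak at an end was 69.2%. Genes known from vessels were unequal: Kcnj2 had 5 peaks and a start fold of 13.6, Kcnj8, the pore of the ATP-sensitive channel of pericytes, had 1 peak, with a fold of 5.35, and Kcnmb1 had 2.

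Partners outside the family showed a like spread. Of 22 such genes 21 had a peak in the window and 19 were marked at an end, against 79.2% and 69.2% of all protein-coding genes. Their median percentile was 63.3, with an order-statistic 95% interval of 47.5 to 89.5 that includes the 47.8 of all genes. Abcc8, the sulfonylurea subunit that pairs with Kcnj11 in neurons and islets, stood at 76 with 19 peaks, and Abcc9, the subunit that pairs with Kcnj8 in vessels, had no peak within its window. Dpp6 and Dpp10, which bind A-type channels, stood at 92.4 and 22.8, with 175 and 28 peaks. Dlg4, a scaffold that binds Kcna and Kcnj channels, stood at 98, and Cntnap2, which clusters Kcna channels along axons, at 22.6 over 2241333 bp.

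As a check of the tissue, all 12 hypothalamic marker genes (such as Otp, Sim1, Hcrt and Pomc) had a peak at an end of the span. So did 0 of 6 markers of hindbrain, spinal cord and cortex and 1 of 6 markers of other organs, Nphs1. The share over all protein-coding genes was 69.2%. At annotated starts 8 of 9 hypothalamic markers had a peak, all but Pomc. Within the whole window Emx1 of the cortex and Myh6 of the heart also had peaks, 2 and 7 in number.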

How the data were processed

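Per the labels' protocols, dissected and minced hypothalamus was lysed to free nuclei for bulk CUT&Tag. The submitters' processing notes list UMI-tools 1.1.4, STAR 2.7.10a, MACS2 (no version), cutadapt 4.5 and BWA 0.7.17 with build mm10, and assign no roles. How the caller was set, and how the 3 samples were joined, is not given in the sources used here. Each peak in the deposited file carries a score, a fold (ratio to a background that is not named), a −log10 q-value and a summit, and these were read in narrowPeak order. Replicates could not be compared, depth is unknown, and no p-value was computed.

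Gene spans came from RefSeq on GRCm38.p6, and starts and strands from its promoter windows (250 bp before to 50 bp after each start), which matched 69 of 94 members. In some members, among them Kcnh2, Kcnip4, Kcnj3, Kcnj4 and Kcnn1, the first start lies inside the span, so starts further upstream may be missing. Peak starts, counted from 0 in the file, were shifted to count from 1. A peak counted when at least 1 bp overlapped the window. Python 3.11.15, pandas 2.3.3, numpy 2.4.6 and scipy 1.17.1 were used, and the functions were tested on simulated intervals. Values are set beside all protein-coding genes, and no resampling was run. Members, classes and lists were chosen with earlier results of these data known. Members were named by rule (in each class the 3 highest and 3 lowest percentiles, the 10 highest start folds, and fixed lists), and the others in the text were chosen after their values were seen. The alternatives were other flanks, windows, peak thresholds, overlap rules and numbers of genes of similar length, and removal of peaks near other genes. Some members that count in the totals are not reported here by name.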

Additional observations from a re-analysis of the deposited data

How the results depend on the processing

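Over all members and each class, 80 values under the alternatives stayed within a range around the reported value and 7 did not. That range was the 95% interval for shares and medians. For the 17 members at or above the 90th percentile it was a set band of 11.3 to 25.5, which measures no error. The class intervals were wide, so the tally shows little about the classes. With an interval of 5.0 to 97, the fall of calcium and sodium activated genes from 83 to 49 counted as within range. The share of members with a peak in the window, 100% as reported, was 92.6% in the gene span alone (74.3% of all genes), 94.7% with peaks above the median −log10 q (76.5%), 91.5% with peaks of high fold, in the upper quartile (73.9%) and 92.6% without peaks in or near other genes (69.4%). With peaks of high fold the share with a start peak was 66.7% (59.8% of all genes) and the median covered percent 3.98% (3.37%). With peaks above the median −log10 q that percent was 7.89% (5.04%). The median percentile of all members ran from 57.8 with peaks of high fold to 72.8 without shared peaks. Ranked only among genes with a peak at an end, an alternative added after seeing the data, it was 68.0, and 13 members reached the 90th percentile in place of 17. The order of the classes changed with the setting: with peaks of high fold tandem pore genes came first at 70.8 and inward rectifiers last at 40.0. The causes of these shifts were not tested. No paired analysis was possible because the 3 samples share 1 peak list, and for the same reason no sample could be left out. Depth limits what a gene without a peak shows, since it may carry a mark below the caller's threshold.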
